A study of Caenorhabditis elegans with 14 samples.

Results

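The genes described here are 9 components of the insulin/IGF signalling pathway of *C. elegans*: *daf-2*, *ist-1*, *age-1*, *daf-18*, *pdk-1*, *akt-1*, *akt-2*, *sgk-1* and *daf-16*. They were picked by gene symbol from the 41560 symbols in the deposited expression values, without use of any measured level, and all 9 were found. Levels are FPKM, that is fragments divided by transcript length in kilobases and by the mapped reads of the library. A gene's level is the sum over its transcripts. FPKM is relative within a library and does not correct for differences in RNA composition between libraries. All 9 genes passed the filter used for tests, a mean of at least 1 FPKM in the libraries compared.

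Polyadenylated RNA of whole animals was sequenced in 7 libraries. The *mir-60;spe-9* double mutants, which carry the complete deletion *mir-60(n4947)* and the sperm-defective allele *spe-9(hc88)*, gave 2 libraries as Day 0 young adults, 1 library at Day 7 and 1 library at Day 10. The *spe-9* control animals, which carry *spe-9(hc88)* alone, gave 2 libraries at Day 0 and 1 library at Day 7. All animals were grown at 23.5 °C, at which *spe-9(hc88)* animals are sterile. The Day 0 animals received no treatment, whereas the Day 7 and Day 10 animals were kept from Day 0 on with paraquat (PQ) at 5 mM, a superoxide generator, and with the DNA synthesis inhibitor FUDR at 325 µM. Age, PQ and FUDR therefore changed together after Day 0 and cannot be told apart. Each library is a pool of whole animals, so fewer cells of a type and less RNA per cell cannot be told apart either. RNA for Day 0 replicates 1 and 2 was purified independently per the study's methods. The later days were set near the median survival time on PQ, Day 7 for *spe-9* and Day 10 for the double mutants, so the later libraries come from surviving animals and Day 7 is an earlier point in the survival of the double mutants than in that of the controls.

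In *C. elegans*, insulin-like peptides act through the receptor DAF-2. The receptor activates the phosphoinositide 3-kinase AGE-1, whose lipid product recruits the kinases PDK-1, AKT-1 and AKT-2, and the lipid phosphatase DAF-18 removes that product. The AKT kinases phosphorylate the FOXO transcription factor DAF-16 and keep it out of the nucleus. Reduced signalling lets DAF-16 enter the nucleus, where it activates genes of stress resistance and longevity. DAF-16 is therefore controlled to a large part at the protein level, which these libraries do not measure.

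The libraries were of like depth. From the FPKM steps of short entries, which correspond to single reads, depth ranged between 1 and 1.26 times that of the double mutant Day 0 replicate 1 library. The absolute depth was not determined here, and the study lists the mapped reads of each library. The FPKM total over all entries differed more, from 1.63e+06 in *spe-9* Day 0 replicate 2 to 2.12e+06 in the Day 10 library. The *mir-60* gene itself, an entry of 98 bases, was listed at 0 in all 7 libraries, controls included, so it gave no check of the strain labels.

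The 9 genes spanned a wide range of levels. At Day 0, *daf-18* was the highest, with a mean of 271 FPKM in double mutants and 308 FPKM in *spe-9* controls, and *ist-1* the lowest, with a mean of 2.99 FPKM in the double mutants and 2.09 FPKM in the controls. Between them, *akt-1*, *daf-16*, *daf-2*, *age-1* and *sgk-1* followed in this order in the double mutants, and the library values of the neighbours in it did not overlap. Next in the double mutants stood *pdk-1* and *akt-2*, whose library values overlapped. In the controls the values of *daf-2* and *age-1* overlapped, *pdk-1* stood above *sgk-1*, and *akt-2* stood below both. At Day 10, in the single double mutant library, *daf-18*, *daf-16* and *akt-1* stood close together at 74.3, 73.2 and 69.0 FPKM, and *akt-2* stood above *daf-2*.

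**Figure D1:**
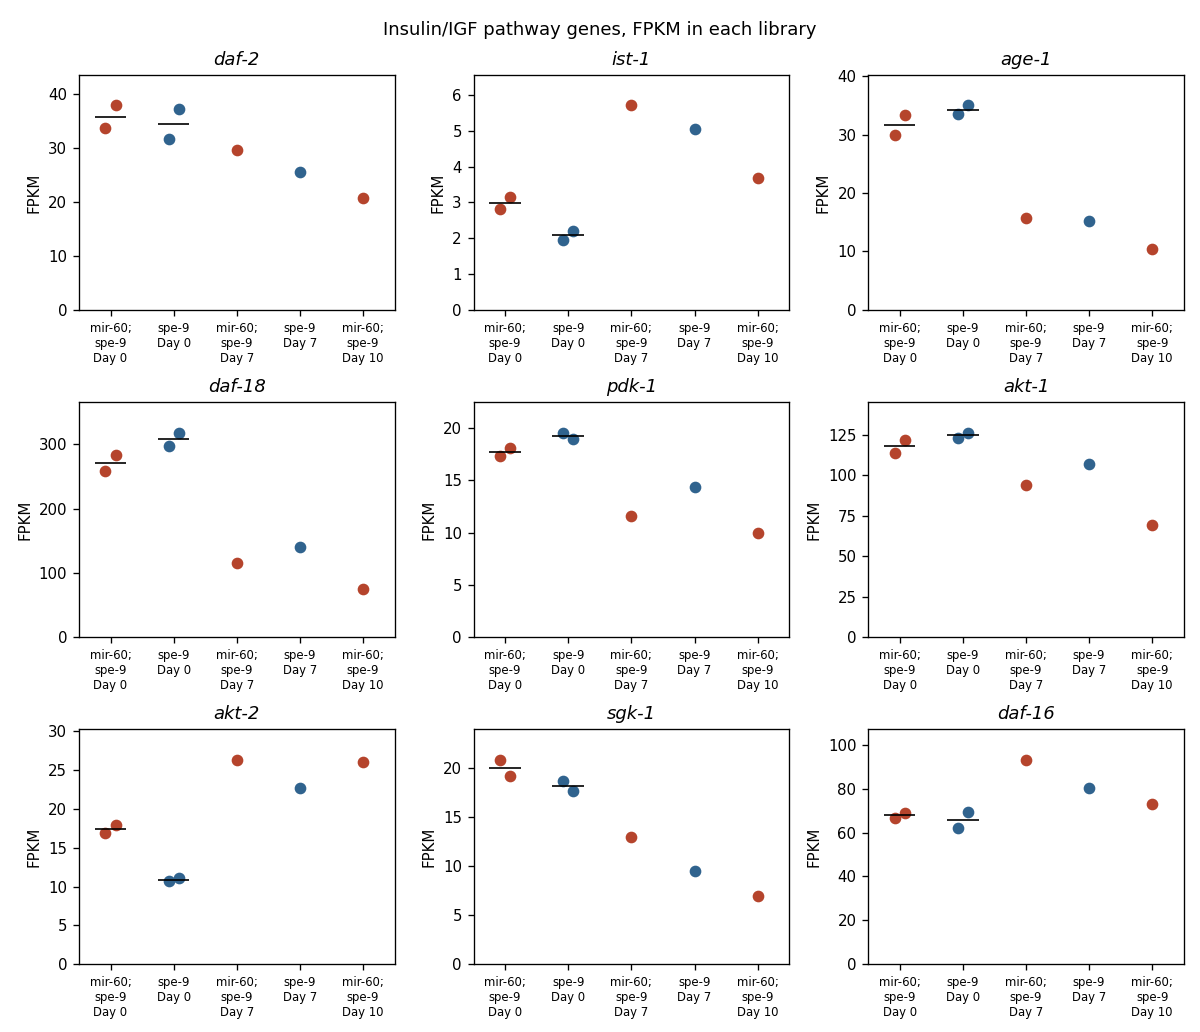
FPKM of each gene (vertical axes, starting at 0) in each library, with *mir-60;spe-9* in red and *spe-9* in blue, for Day 0, Day 7 and Day 10. Each point is 1 library and the bar is the mean of the 2 Day 0 libraries. In *akt-2* the *mir-60;spe-9* points lie above those of *spe-9* at Day 0, and in *age-1* and *daf-18* all later points lie far below those of Day 0.

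*daf-2*, on chromosome III at chrIII:2995911-3028694 in the WS220 build, encodes the only insulin/IGF receptor of the worm. It had 33.8 and 37.9 FPKM in the double mutant Day 0 libraries and 31.8 and 37.3 FPKM in the *spe-9* Day 0 libraries, followed by 29.7 FPKM in the double mutants and 25.5 FPKM in *spe-9* at Day 7 and by 20.8 FPKM in the double mutants at Day 10. The strains overlapped at Day 0, and every later library was below every Day 0 library. Of its 2 transcripts, the one with a length of 5541 bases held between 29.7 and 34.6 FPKM at Day 0 and the one of 3063 bases between 2.08 and 3.36 FPKM.

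*ist-1*, at chrX:7132164-7139227, encodes a homolog of the insulin receptor substrate adaptors. Its level was low throughout, with 2.83 and 3.15 FPKM in the double mutant Day 0 libraries and 1.96 and 2.22 FPKM in the *spe-9* Day 0 libraries. It stood at 5.71 FPKM in the double mutants and 5.05 FPKM in *spe-9* at Day 7, and at 3.68 FPKM in the double mutants at Day 10. The Day 0 libraries of the strains did not overlap, and every later library was above every Day 0 library.

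*age-1*, at chrII:11519644-11526990, encodes the catalytic subunit of phosphoinositide 3-kinase. It had 30.0 and 33.4 FPKM in the double mutant Day 0 libraries and 33.5 and 35.0 FPKM in the *spe-9* Day 0 libraries. At Day 7 it had 15.8 FPKM in the double mutants and 15.2 FPKM in *spe-9*, and at Day 10 it had 10.4 FPKM in the double mutants. The later libraries were thus far below all 4 Day 0 libraries, while the Day 0 libraries of the strains lay next to each other.

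*daf-18*, at chrIV:420426-425148, encodes the lipid phosphatase that opposes AGE-1. It had 258 and 283 FPKM in the double mutant Day 0 libraries and 298 and 318 FPKM in the *spe-9* Day 0 libraries, then 115 FPKM in the double mutants and 139.9 FPKM in *spe-9* at Day 7 and 74.3 FPKM in the double mutants at Day 10. Kinase and phosphatase fell side by side after Day 0. The ratio of *daf-18* over *age-1* FPKM was 8.61 and 8.49 in the double mutant Day 0 libraries, 8.89 and 9.10 in the *spe-9* Day 0 libraries, 7.30 in *mir-60;spe-9* and 9.22 in *spe-9* at Day 7, and 7.12 in the double mutants at Day 10.

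*pdk-1*, at chrX:1321358-1327488, encodes the kinase that phosphorylates the AKT kinases and SGK-1. It had 17.3 and 18.1 FPKM in the double mutant Day 0 libraries and 19.6 and 18.997 FPKM in the *spe-9* Day 0 libraries, with 11.6 FPKM in the double mutants and 14.4 FPKM in *spe-9* at Day 7 and 9.96 FPKM in the double mutants at Day 10. Its Day 0 values were lower in both double mutant libraries than in both control libraries, and every later value was lower than these. *sgk-1*, at chrX:16254941-16261978, encodes a serum- and glucocorticoid-regulated kinase homolog. It had 20.9 and 19.3 FPKM in the double mutant Day 0 libraries and 18.7 and 17.7 FPKM in the *spe-9* Day 0 libraries, with 13.0 FPKM in the double mutants and 9.49 FPKM in *spe-9* at Day 7 and 7.01 FPKM in the double mutants at Day 10. It was higher in both double mutant libraries than in both controls at Day 0 and lower in all later libraries.

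The AKT homologs *akt-1*, at chrV:10248931-10252426, and *akt-2*, at chrX:14147638-14151491, encode the kinases that phosphorylate DAF-16. *akt-1* had 114 and 122 FPKM in the double mutant Day 0 libraries and 123 and 126 FPKM in the *spe-9* Day 0 libraries, then 93.8 FPKM in the double mutants and 107 FPKM in *spe-9* at Day 7 and 69.0 FPKM in the double mutants at Day 10. *akt-2* had 16.9 and 17.99 FPKM in the double mutant Day 0 libraries and 10.7 and 11.04 FPKM in the *spe-9* Day 0 libraries, then 26.3 FPKM in the double mutants and 22.7 FPKM in *spe-9* at Day 7 and 26.0 FPKM in the double mutants at Day 10. The paralogs moved apart, *akt-1* being lower and *akt-2* higher in all 3 later libraries than in all 4 Day 0 libraries. The ratio of *akt-1* over *akt-2* FPKM was 6.73 and 6.78 in the double mutant Day 0 libraries, 11.5 and 11.4 in the *spe-9* Day 0 libraries, 3.56 in *mir-60;spe-9* and 4.70 in *spe-9* at Day 7, and 2.65 in the double mutants at Day 10. It was lower in the double mutants than in the controls at both days on which both strains were sequenced.

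*daf-16*, at chrI:10750487-10775039, encodes the FOXO factor on which the pathway converges. Its 8 transcripts summed to 66.8 and 69.0 FPKM in the double mutant Day 0 libraries and to 61.9 and 69.3 FPKM in the *spe-9* Day 0 libraries. The sum was 93.1 FPKM in *mir-60;spe-9* and 80.4 FPKM in *spe-9* at Day 7, and 73.2 FPKM in the double mutants at Day 10. The strains overlapped at Day 0, and all later libraries were above all Day 0 libraries, the Day 10 library by a small margin.

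At Day 0, the comparison of the double mutants with *spe-9* asks whether *mir-60* loss alters the expression of these genes in unstressed young adults. None of the 9 genes passed the test across all genes (limma on log2 of FPKM plus 0.5, Benjamini-Hochberg adjusted p under 0.05), in which 0.742% of the 13068 genes tested passed, 75.3% of these being higher in the double mutants (64.4% with median centring and 61.6% with quantile normalization). The gene nearest to the threshold was *akt-2*, with 17.5 ± 0.756 FPKM in the double mutants and 10.9 ± 0.251 FPKM in *spe-9* (SD, n = 2 each). Its log2 change was 0.66 (95% interval 0.43 to 0.89), with an unadjusted p of 0.00134 and an adjusted p of 0.0795 in limma. It was the only one of the 9 with an unadjusted p under 0.05, and 10.7% of all genes were higher in the double mutants at that level.

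The other members differed less between the strains. The log2 change of *daf-16* was 0.05 (95% interval -0.18 to 0.28, limma adjusted p = 0.754) and that of *daf-2* 0.05 (-0.27 to 0.38, limma adjusted p = 0.815). *ist-1* had 0.43 (-0.10 to 0.96, limma adjusted p = 0.390), the widest interval of the 9 at its low level. The remaining 5 genes had log2 changes between -0.19 in *daf-18* and 0.14 in *sgk-1*, with limma adjusted p between 0.380 and 0.544. The libraries of the strains did not overlap in 7 genes: *ist-1*, *akt-2* and *sgk-1* were higher in both double mutant libraries, where 27.1% of all genes were, and *age-1*, *daf-18*, *pdk-1* and *akt-1* were lower in both, where 24.5% were. The median absolute log2 change of the 9 genes was 0.12, against 0.16 over all genes tested.

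**Figure D2:**
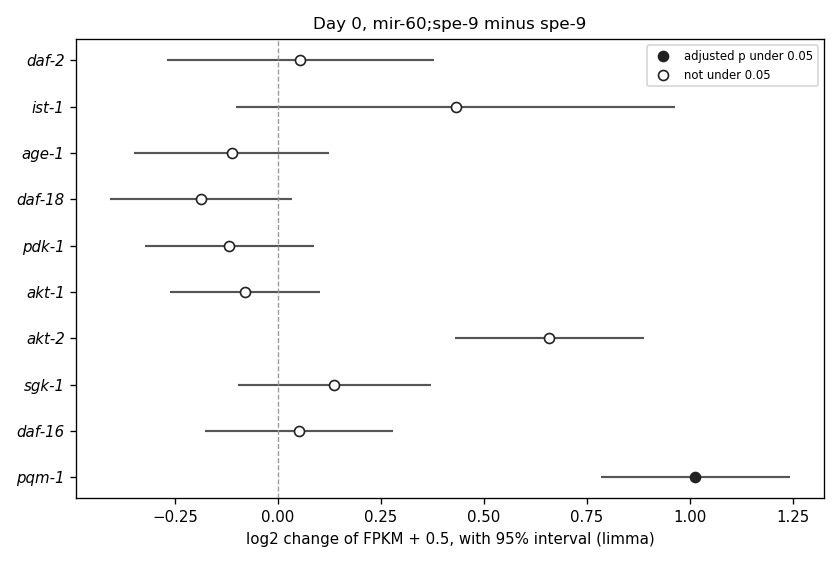
Log2 change at Day 0 of *mir-60;spe-9* over *spe-9* (horizontal axis, log2 of FPKM plus 0.5) with its 95% interval from limma, for the 9 genes and *pqm-1*, filled where the adjusted p was under 0.05. The *akt-2* interval, 0.43 to 0.89, lies above 0 with an open point, and only *pqm-1* is filled.

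At Day 7 against Day 0, with strain as a term (2 Day 7 libraries against 4 Day 0 libraries), all 9 genes passed the threshold, but so did 60.6% of the 13639 genes tested. The 2 Day 7 libraries are 1 of each strain, so the strains served as replicates of the day difference. The p-values and SE therefore do not measure the spread between Day 7 cultures of a strain. *ist-1*, *akt-2* and *daf-16* rose, as 33.2% of all genes did, and *daf-2*, *age-1*, *daf-18*, *pdk-1*, *akt-1* and *sgk-1* fell, as 27.5% did. The median log2 change of the 9 genes was -0.34, against 0.06 over all genes, and the median absolute change was 0.75, against 0.67.

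The largest changes among the 9 genes were those of the lipid-modifying enzymes. *daf-18* fell by 1.18 on the log2 scale (SE 0.07, limma adjusted p = 0.00044), to 0.441 of its Day 0 level, and *age-1* fell by 1.06 (SE 0.08, limma adjusted p = 0.000818), to 0.478 of it. Among the kinases, *sgk-1* fell by 0.75 (SE 0.10, limma adjusted p = 0.00339) and *pdk-1* fell by 0.50 (SE 0.08, limma adjusted p = 0.00519). The *akt-2* level rose by 0.80 (SE 0.12, limma adjusted p = 0.00527) and the *ist-1* level by 0.97 (SE 0.14, limma adjusted p = 0.00454). These 6 calls held in all alternatives in which the gene was tested.

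The 3 smaller changes were less stable. *akt-1* fell by 0.28 (SE 0.06, limma adjusted p = 0.0134), and its adjusted p was 0.0680 without the double mutant Day 7 library. *daf-16* rose by 0.37 (SE 0.08, limma adjusted p = 0.0122), and its adjusted p was 0.0791 without that library, 0.0763 with median centring and 0.0635 with the Day 10 library added. *daf-2* fell by 0.34 (SE 0.10, limma adjusted p = 0.0397). The *daf-2* call was lost in 10 of 18 alternatives, among them those without either Day 7 library (adjusted p = 0.219 without that of *spe-9* and 0.0925 without that of the double mutants), and those without double mutant Day 0 replicate 2 (0.104), *spe-9* Day 0 replicate 1 (0.0614) or *spe-9* Day 0 replicate 2 (0.0587).

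Direction did not differ between the strains. All 3 rises and all 6 falls were seen in the double mutant Day 7 library and in the *spe-9* Day 7 library, each against the Day 0 libraries of its own strain. Past 1.5-fold, the double mutants had 1 higher and 4 lower genes, where 29.4% and 25.2% of all genes were, and the controls had 2 higher and 3 lower ones, where 32.1% and 21.8% were. The double mutant counts changed with the scaling. With Day 10 included, the 3 later libraries were all above the 4 Day 0 libraries in 3 of the 9 genes and all below them in 6, as in 31.3% and 30.0% of all genes. The strains stood furthest apart in *akt-2*, whose log2 ratio of Day 7 over Day 0 was 0.58 in *mir-60;spe-9* and 1.03 in *spe-9*. For *sgk-1* the ratio was -0.60 in *mir-60;spe-9* and -0.90 in *spe-9*, and for *daf-16* it was 0.45 in *mir-60;spe-9* and 0.29 in *spe-9*. These differences between the strains rest on 1 Day 7 library each and were not tested.

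**Figure D3:**
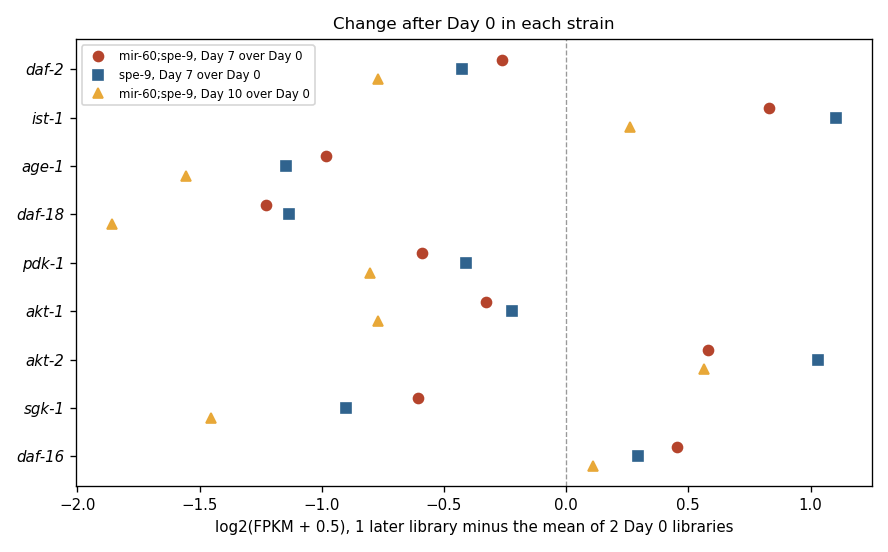
Log2 of FPKM plus 0.5 in 1 later library minus the mean of the 2 Day 0 libraries of the same strain (horizontal axis), for *mir-60;spe-9* at Day 7 (red circles), *spe-9* at Day 7 (blue squares) and *mir-60;spe-9* at Day 10 (yellow triangles). *ist-1*, *akt-2* and *daf-16* lie right of 0 in all 3 comparisons and the other 6 genes left of it, with *daf-18* at -1.86 at Day 10.

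Markers of several tissues moved with the day in the same libraries. Summed over 14 germline and oocyte markers, FPKM was 2216 in *mir-60;spe-9* and 2761 in *spe-9* at Day 7, against a range of 5233 to 6846 in the 4 Day 0 libraries, and 12 of the 14 were called lower. Among these markers, *oma-2* was listed at 0 in the double mutant libraries of Day 7 and Day 10, against 129 FPKM in *spe-9* at Day 7 and 266 to 342 FPKM at Day 0, and such a 0 can be a failed estimate. All 5 body wall muscle markers were called lower, their sum being 52.3 FPKM in *mir-60;spe-9* and 40.3 FPKM in *spe-9* at Day 7, against 942 to 1220 at Day 0. Of the intestinal markers 5 of 6 were lower, and of the neuronal markers 3 of 7 were higher and none lower. In the same test, 27.5% of all genes were called lower and 33.2% higher. The intestinal exception was *elt-7*, with 50.05 FPKM in *mir-60;spe-9* and 28.7 FPKM in *spe-9* at Day 7. It had 23.98 to 32.99 FPKM in the 4 Day 0 libraries. The hypodermal sum was 7.52 FPKM in *mir-60;spe-9* and 8.29 FPKM in *spe-9* at Day 7, against 1161 to 2041 at Day 0, with 2 of 2 tested markers lower. At Day 0, 0 of the tested markers were called between the strains, where 0.742% of all genes were. The summed levels of the 5 somatic and sperm lists were higher in both double mutant libraries, as 27.1% of single genes were. The sum was 25.4 and 15.01 FPKM in the double mutants against 4.85 and 4.32 FPKM in *spe-9* for sperm, and 1220 and 1146 FPKM against 950.0 and 942 FPKM for body wall muscle. It was 2041 and 1590 FPKM in the double mutants against 1408 and 1161 FPKM in *spe-9* for the hypodermis, 358 and 334 FPKM against 320 and 299 FPKM for the intestine, and 1047 and 1042 FPKM against 987 and 997 FPKM for neurons. The germline and oocyte sum, 5233 and 6215 FPKM in the double mutants and 5778 and 6846 FPKM in *spe-9*, overlapped. Most of the neuronal sum was *snb-1* and most of the hypodermal sum *col-19*, with *rol-6* and *bli-1* near 0. Not all markers followed their sum. *act-5*, the largest intestinal marker, had 172 and 160 FPKM in the double mutants against 174 and 167 FPKM in *spe-9*. The neuronal *unc-119* overlapped too, with 38.5 and 32.5 FPKM in the double mutants against 36.6 and 31.8 FPKM in *spe-9*. The part of these shifts in the changes of the 9 genes was not tested.

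Day 10 was sequenced in the double mutants only, in 1 library, and all 9 genes were lower there than in the Day 7 library of the same strain. The median log2 ratio of Day 10 over Day 7 was -0.51 for the 9 genes, against -0.20 over all genes, so most genes had lower FPKM too. A difference in scale between the 2 libraries and lower expression cannot be told apart in such a shift. *sgk-1* (0.556 times) and *daf-18* (0.646 times) were lower by more than 1.5-fold, as were 17.8% of all genes, none was higher by that much, as 7.75% were, and *akt-2* was at 0.989 times its Day 7 level. Against Day 0, 6 genes were lower by more than 1.5-fold at Day 10, as 35.1% of all genes were, and none was higher by that much, as 27.4% were. *daf-18* stood at 0.276 times, *age-1* at 0.340 times and *sgk-1* at 0.366 times their Day 0 levels. *daf-16* was at 1.08 times its Day 0 level, against 1.37 times at Day 7. With 1 library a day there is no replicate check of these values, and the counts past 1.5-fold changed with the scaling.

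At Day 7 the strains differed little in these genes. None of the 9 differed by more than 1.5-fold between the double mutant and the *spe-9* library, a difference that 11.1% of all genes showed upwards and 8.86% downwards. *sgk-1* stood highest, at 1.35 times the *spe-9* value, and *pdk-1* lowest, at 0.814 times. *akt-2* was at 1.16 times, *daf-16* at 1.16 times and *daf-2* at 1.16 times the *spe-9* value. With day as a term over the 6 Day 0 and Day 7 libraries, which adds 1 library of each strain to the Day 0 comparison and was chosen after the values were seen, the log2 change of *akt-2* in the double mutants over *spe-9* was 0.51 (limma adjusted p = 0.204), with 0.0367% of all genes past the threshold.

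The 8 transcripts of *daf-16* share their end at position 10775039 and differ in where they start. The deposited models are nearly all coding sequence, so lengths are coding lengths. Transcripts share exons, and reads in shared exons were divided among them by estimation in the authors' processing, so levels of single transcripts are less certain than the sum. By start they fall into 3 groups: 3 with starts between 10750487 and 10750949 (upstream), 2 with the start 10763092 (middle) and 3 with starts between 10771497 and 10772988 (downstream). The *C. elegans* DAF-16 isoforms made from different promoters are known to differ in their first part and in the tissues that use them.

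The upstream group held the most at Day 0, with 36.1 and 41.2 FPKM in the double mutants and 36.8 and 43.2 FPKM in *spe-9*, followed by 50.6 FPKM in the double mutants and 46.2 FPKM in *spe-9* at Day 7 and 28.3 FPKM in the double mutants at Day 10. The middle group had 15.8 and 14.6 FPKM in the double mutants and 13.5 and 14.0 FPKM in *spe-9* at Day 0, followed by 25.4 FPKM in the double mutants and 18.8 FPKM in *spe-9* at Day 7 and 19.99 FPKM in the double mutants at Day 10. The downstream group had 14.9 and 13.2 FPKM in the double mutants and 11.6 and 12.1 FPKM in *spe-9* at Day 0, followed by 17.2 FPKM in the double mutants and 15.3 FPKM in *spe-9* at Day 7 and 24.9 FPKM in the double mutants at Day 10. Middle and downstream groups were thus higher in all later libraries than in all Day 0 libraries, whereas the upstream group was highest at Day 7 and lowest at Day 10. The share of the upstream group in the *daf-16* sum lay between 54.1% and 62.3% in the 6 libraries of Day 0 and Day 7 and was 38.6% at Day 10. The share of the downstream group was 34.1% at Day 10, against 17.4% to 22.3% in the other libraries. The Day 10 shares come from 1 library and have no replicate check.

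**Figure D4:**
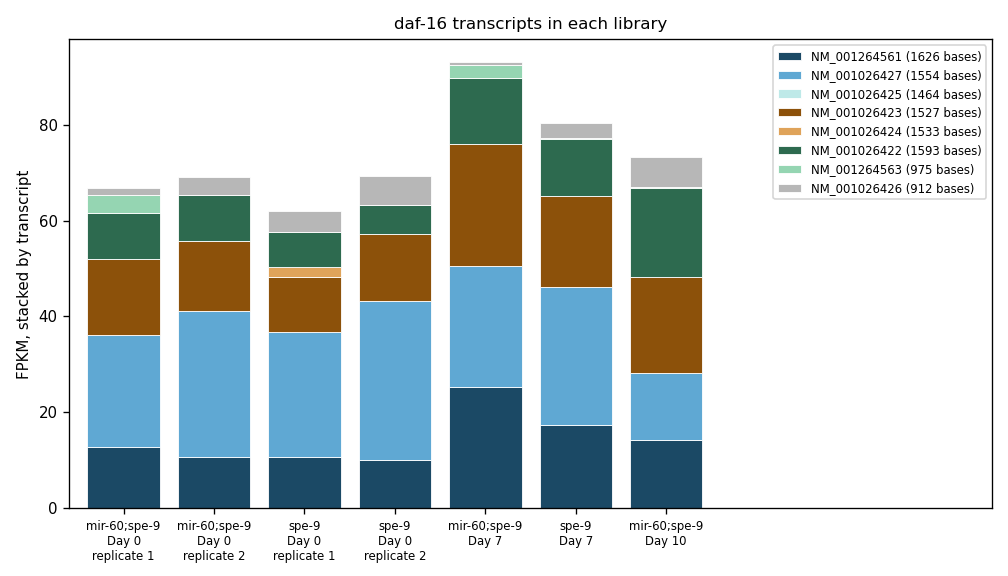
FPKM of the 8 *daf-16* transcripts stacked in each library (vertical axis), with upstream starts in blues at the bottom, middle starts in browns and downstream starts in greens and grey at the top. The stack is tallest in the *mir-60;spe-9* Day 7 library, at 93.1 FPKM, and the blue part is smallest in the *mir-60;spe-9* Day 10 library, at 28.3 FPKM.

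Within the upstream group, 2 transcripts carried nearly all of the signal, and their estimated levels moved differently. They start at 10750487 and 10750621 and share their end, so the division of reads between them is uncertain. The share of NM_001026427 in the *daf-16* sum was 34.9% and 44.1% in the 2 double mutant Day 0 libraries. NM_001026427 (1554 bases), the highest of the 8 at Day 0, had 23.3 and 30.4 FPKM in the double mutants and 26.0 and 33.2 FPKM in *spe-9*, with 25.4 FPKM in the double mutants and 28.8 FPKM in *spe-9* at Day 7 and 14.1 FPKM in the double mutants at Day 10. NM_001264561 (1626 bases) had 12.8 and 10.7 FPKM in the double mutants and 10.7 and 10.0 FPKM in *spe-9* at Day 0, with 25.2 FPKM in the double mutants and 17.4 FPKM in *spe-9* at Day 7 and 14.2 FPKM in the double mutants at Day 10. Day 7 values of NM_001026427 lay within its Day 0 range in both strains, and those of NM_001264561 above its Day 0 range. NM_001026425 (1464 bases) had at most 0.0358 FPKM in every library.

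In the middle group NM_001026423 (1527 bases) carried the signal, with 15.8 and 14.6 FPKM in the double mutants and 11.5 and 14.0 FPKM in *spe-9* at Day 0. NM_001026424 (1533 bases), which starts at the same base, had 2.04 FPKM in *spe-9* Day 0 replicate 1 and was near 0 in the other 6 libraries. In the downstream group NM_001026422 (1593 bases) had 9.56 and 9.53 FPKM in the double mutants and 7.33 and 6.02 FPKM in *spe-9* at Day 0, and 18.4 FPKM in the double mutants at Day 10. The shorter NM_001264563 (975 bases) and NM_001026426 (912 bases) varied between libraries of the same group. NM_001264563 had 3.85 and 0.0328 FPKM in the 2 double mutant Day 0 libraries, a spread that leaves it without a usable level.

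Of the 5 *daf-16* transcripts tested at Day 0, none passed the limma threshold in the double mutants against *spe-9*, where 0.272% of 16154 transcripts did. The nearest was NM_001026422, with a log2 change of 0.49 (95% interval 0.10 to 0.88, limma adjusted p = 0.300, unadjusted p = 0.0260), the only one of the 5 with an unadjusted p under 0.05. At Day 7 against Day 0, in a test of single transcripts chosen after the values were seen, NM_001264561 rose by 0.90 (limma adjusted p = 0.00513), NM_001026422 by 0.65 (limma adjusted p = 0.0129) and NM_001026423 by 0.63 (limma adjusted p = 0.01003), where 29.9% of all 16904 transcripts tested rose. Of the other 3 tested, NM_001026427 had a log2 change of -0.05 (95% interval -0.46 to 0.37, limma adjusted p = 0.805), NM_001026426 one of -0.90 (-1.93 to 0.12, limma adjusted p = 0.110) and NM_001264563 one of 0.79 (-1.61 to 3.20, limma adjusted p = 0.493). By the estimated levels, the rise of the *daf-16* sum at Day 7 was thus seen in transcripts other than NM_001026427, the highest at Day 0. Taking that transcript in place of the sum gave -0.05 for *daf-16*. The upstream group that holds it was higher at Day 7 when summed. It had 50.6 FPKM in the double mutants and 46.2 FPKM in *spe-9*, against 36.1 to 43.2 FPKM at Day 0.

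Of 24 further genes known to act on the pathway or on DAF-16, 21 could be tested, and the eak genes *eak-3* and *eak-4* and the phosphatase-related gene *sdf-9* were below the filter. At Day 0 1 of the 21 rose in the double mutants and 0 fell, against 0.559% and 0.184% of all genes. This was *pqm-1*, a zinc finger transcription factor that in *C. elegans* acts in opposition to DAF-16. It had 56.5 and 60.9 FPKM in the double mutants and 27.6 and 30.1 FPKM in *spe-9*, a log2 change of 1.01 (SE 0.08, limma adjusted p = 0.0438). Without any 1 of the 4 libraries the change was between 0.95 and 1.07. The call was lost in 8 of 16 alternatives in all, among them each of these fits. They leave 1 library in a strain and cannot show whether the call is stable. At Day 7 the strains no longer stood in that order, with 130.0 FPKM in the double mutants and 144 FPKM in *spe-9*, and Day 10 gave 107 FPKM in the double mutants.

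At Day 7 against Day 0, 4 of the 21 rose, 5 fell and 12 did not pass, where 33.2% of all genes rose and 27.5% fell. Their median log2 change was 0.01, with a median absolute change of 0.24 against 0.67 over all genes. The rises were those of *pqm-1* (log2 change 1.72), of *cst-1* (1.37), which encodes a kinase that phosphorylates DAF-16, of the 14-3-3 protein gene *ftt-2* (0.58) and of the arginine methyltransferase gene *prmt-1* (0.53), which acts on DAF-16. The largest fall was that of *swsn-1* (-0.99), which encodes a subunit of the SWI/SNF chromatin remodeller that works with DAF-16. The other falls were those of the beta-catenin gene *bar-1* (-0.68), the heat shock factor gene *hsf-1* (-0.56), the ubiquitin ligase gene *rle-1* (-0.47) and the other 14-3-3 gene, *par-5* (-0.36). Limma adjusted p of the 9 ranged between 0.000912 in *prmt-1* and 0.0491 in *rle-1*. The *rle-1* and *bar-1* calls were lost in 10 of 18 and 9 of 17 alternatives. The log2 ratio of *rle-1* at Day 7 over Day 0 was -0.18 in *mir-60;spe-9* and -0.75 in *spe-9*, so most of its fall lay in the controls. That of *pqm-1* was 1.14 in *mir-60;spe-9* and 2.31 in *spe-9*, so its change of 1.72 averages unlike rises. These ratios rest on 1 Day 7 library each and were not tested.

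**Figure D5:**
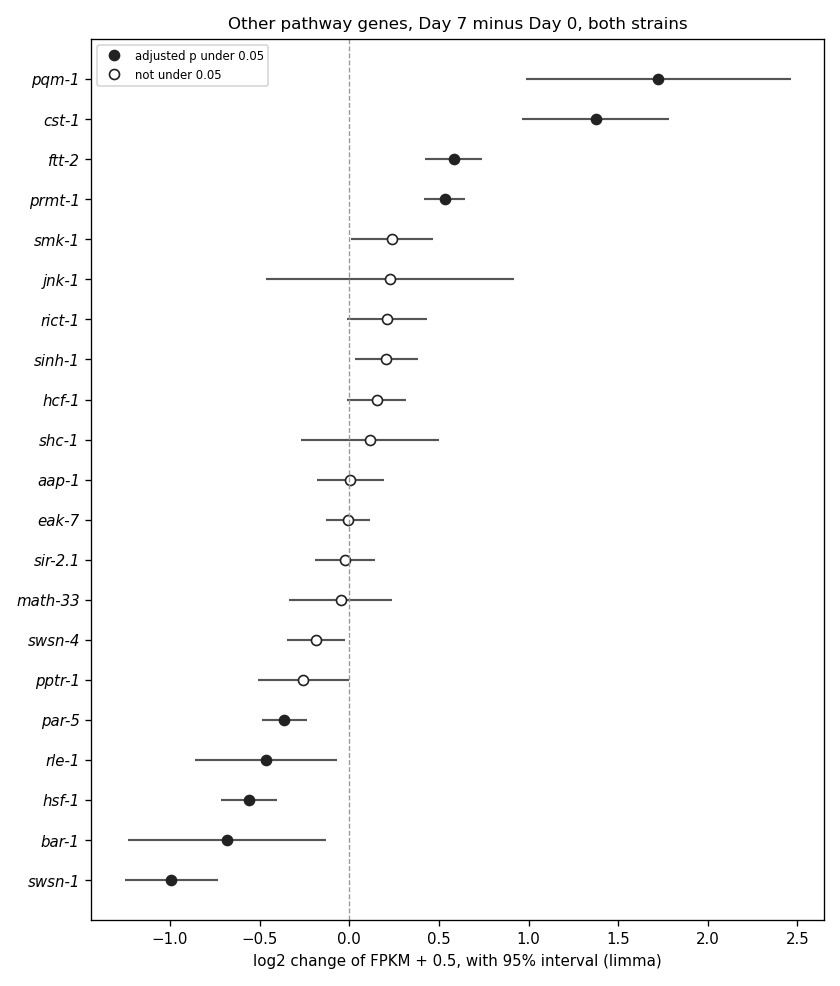
Log2 change at Day 7 over Day 0 with strain as a term (horizontal axis, log2 of FPKM plus 0.5) and its 95% interval from limma, for the 21 further pathway genes that could be tested, filled where the adjusted p was under 0.05. The 4 filled points at the top are those of *pqm-1*, *cst-1*, *ftt-2* and *prmt-1*, and the lowest is that of *swsn-1* at -0.99.

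Of 8 genes known to be activated by DAF-16, 7 could be tested, and *scl-1* was below the filter. At Day 0 1 of the 7 rose and 0 fell in the double mutants, where 0.559% of all genes rose and 0.184% fell. This was the peroxisomal catalase gene *ctl-2*, with 93.0 and 86.9 FPKM in the double mutants and 53.1 and 50.6 FPKM in *spe-9* (log2 change 0.79, limma adjusted p = 0.0498). Leaving out any 1 of the 4 libraries gave a *ctl-2* change between 0.74 and 0.84. The call was lost in 9 of 16 alternatives in all, among them each of these fits. They leave 1 library in a strain and cannot show whether the call is stable. Of the 7 log2 changes at Day 0, 5 were positive and 2 negative. Their median was 0.37, against 0.01 over all genes. Besides *ctl-2*, unadjusted limma p was under 0.05 in *nnt-1* (log2 change 0.61, adjusted p = 0.183) and *lea-1* (0.39, adjusted p = 0.265). Each of the 3 had a positive change, as did 10.7% of all genes at that unadjusted level. At Day 7 against Day 0, 5 of the 7 rose, 1 fell and 1 did not pass, where 33.2% of all genes rose and 27.5% fell. The metallothionein gene *mtl-1* had 1091 FPKM in the double mutants and 947 FPKM in *spe-9* at Day 7, against 18.9 to 34.0 FPKM in the 4 Day 0 libraries, a log2 change of 5.38 (limma adjusted p = 0.000212). The small heat shock protein gene *hsp-12.6* had 106 FPKM in the double mutants and 128 FPKM in *spe-9* at Day 7, against 5.51 to 8.84 FPKM at Day 0, a log2 change of 3.87 (limma adjusted p = 0.00033). *ctl-2* fell by 0.54 (limma adjusted p = 0.00508), a call lost without the strain term (adjusted p = 0.205). *sod-3*, a mitochondrial superoxide dismutase gene often used to read DAF-16 activity, had a log2 change of -0.01 (95% interval -0.49 to 0.47, limma adjusted p = 0.960). That value averages opposite log2 ratios of Day 7 over Day 0, 0.30 in *mir-60;spe-9* and -0.32 in *spe-9*. They rest on 1 Day 7 library each and were not tested, at a low level of 3.11 to 4.20 FPKM over the libraries. Other factors also act on these genes, so their levels are no direct measure of DAF-16.

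Over the 7 libraries, the genes whose log2 levels followed *daf-16* most closely among 12729 ranked were *pde-2* (Pearson r = 0.991), *unc-16* (0.985), F53B1.8 (0.984), *aakg-1* (0.982) and *ztf-7* (0.981). *pde-2* encodes a cyclic nucleotide phosphodiesterase, *unc-16* a JNK scaffold protein and *aakg-1* a regulatory subunit of AMP-activated kinase. Like *daf-16*, *pde-2* was highest in the double mutant Day 7 library (129.8 FPKM), followed by *spe-9* at Day 7 (109 FPKM) and *mir-60;spe-9* at Day 10 (90.9 FPKM), with 72.2 to 84.7 FPKM at Day 0. The correlations are a description over 7 libraries that share their day, treatment and scaling.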

How the data were processed

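Reads were aligned by the authors to WS220 with TopHat2 2.1.0 and Bowtie2 2.1.0 and passed to Cufflinks 2.2.1. The deposited values are FPKM of 49823 RefSeq transcripts in 7 libraries, each merged by the authors from 2 sequencing runs (14 samples). Log2 of the gene sum plus 0.5 was fitted with limma 3.58.1 in R 4.3.3 (lmFit, eBayes with a variance trend), with Benjamini-Hochberg adjustment over all genes whose mean reached 1 FPKM. At Day 0, 2 libraries were set against 2, for which an exact permutation test cannot give p below 0.333. At Day 7, 6 libraries were fitted with strain as a term. Single libraries were compared as ratios, with 1.5-fold as the limit. The steps were tested on simulated data. Read counts were not used here.

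The text names every member and *daf-16* transcript, up to 4 further pathway genes and 2 genes activated by DAF-16 in each direction, and the 5 genes of at least 200 bases most correlated with *daf-16*. *par-5*, *sod-3*, *nnt-1* and *lea-1* were named after their values were seen. Members, lists and most alternatives were chosen with earlier results of these data known. Alternatives covered the pseudocount, filter, scaling, transcript choice, variance trend, short genes, terms of the fit and each library left out.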

Additional observations from a re-analysis of the deposited data

How the results depend on the processing

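At Day 0, the count of members called was 0 in all alternatives except the replicate block, where it was 1 higher, *akt-2*, alone (limma adjusted p = 0.0492) and with genes of at least 200 bases (0.0131). The replicate block assumes that libraries with the same number belong together, which the labels do not state, and their deviations had a correlation of 0.076 over 13068 genes and 0.347 over 12192 genes of at least 200 bases. Over all genes the Day 0 count was 97, against 354 with the block, 1715 with the block and at least 200 bases, 204 with at least 200 bases alone, 42 without a filter, 5 in the strain term over 6 libraries and 0 without any 1 library. Over all transcripts it was 44, against 76 with median centring, 68 without the variance trend, 3 without a filter, 3 with the block and 0 without any 1 library. Sign changes occurred in *daf-2*, *daf-16* and NM_001026427, none of them called at Day 0. The log2 change of *daf-2* was -0.0337 with median centring and between -0.0592 and 0.169 over the libraries left out. That of *daf-16* was -0.037 with median centring, -0.139 with its highest transcript and between -0.0295 and 0.133 over the libraries left out, and that of NM_001026427 between -0.328 and 0.0508. At Day 7 the members called ranged between 2 and 3 higher and between 4 and 6 lower over the libraries left out, and *daf-16* was -0.0491 with its highest transcript. Among single-library counts past 1.5-fold in *mir-60;spe-9*, Day 7 over Day 0 gave 2 higher with a pseudocount of 0.1, median centring or quantile normalization in place of 1, and 2 lower with median centring in place of 4. Day 10 over Day 7 gave 4 lower with a pseudocount of 0.1 and 1 lower with median centring or quantile normalization in place of 2. Day 10 over Day 0 gave 1 higher with either scaling in place of 0, and 3 lower with median centring in place of 6. A scaling to *cdc-42* and *pmp-3* was chosen after the data were seen. It left out *ama-1*, which was listed at 0 in the *mir-60;spe-9* Day 7 library, against 67.4 to 77.5 FPKM elsewhere, and it kept the 3 higher and 6 lower calls. The Day 7 and Day 10 values rest on 1 library per strain and day.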
